A study of Mus musculus with 12 samples.

Results

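Genes that encode signals from bone marrow stromal cells (BMSCs) to osteoclasts, or that control those signals, were examined by RNA-Seq. They are *Tnfsf11* (RANKL), *Tnfrsf11b* (osteoprotegerin, OPG), *Csf1* (macrophage colony-stimulating factor), *Il6*, *Lif* and *Il11*. They were chosen by gene symbol, through the Ensembl identifiers of the count matrix, and all 6 were found among its 56980 genes. The cells were W-20 cells (labelled W-20-17), a mouse BMSC line, in 12 libraries of 4 groups with 3 libraries each. Unmodified (WT) cells and Y428F cells received 50 nM PTH or the vehicle, PBS, and were taken after 2 hours.

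The Y428F cells carry YAP, a transcriptional coactivator of the Hippo pathway, with a tyrosine changed to phenylalanine. The study's methods describe Flag-tagged YAP plasmids, puromycin selection and more than one stable line with this change, one of which also carries a serine-to-alanine change, and the study's text describes the sequenced cells both as the line with both changes and by the tyrosine change alone, while the titles name the latter. Groups were taken from the titles, because the genotype label of the Y428F libraries also reads WT. No library came from cells given wild-type YAP, so the mutation and other differences between the 2 lines cannot be told apart. The labels do not say whether libraries of a group came from separate cultures, so p-values measure only the spread between these samples.

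Osteoclasts form from precursors of the monocyte lineage that receive RANKL, through its receptor RANK, together with CSF1. OPG is a soluble decoy receptor that binds RANKL and keeps it from RANK, so the balance of RANKL and OPG sets how much signal reaches the precursor. IL-6, LIF and IL-11 signal through receptors that share the subunit gp130, and in cells of the osteoblast lineage PTH is known to raise RANKL and IL-6 and to change OPG.

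The libraries held 17127897 to 19057319 counts (median 17740980). By the level of its markers the culture was stromal. The 12 stromal genes, *Col1a2* the most abundant, summed to 22880 ± 1936 CPM in WT cells with vehicle. Haematopoietic and endothelial markers summed to 8.68 ± 0.734 and 1.42 ± 0.453 CPM in the same libraries. Of the stromal genes 11 had at least 10 counts, and *Thy1* had 0 counts in all libraries. Of 9 osteoblast and osteocyte markers 4 reached 10 counts in all. *Spp1* (osteopontin), the most abundant and also made by other cells, had 768 ± 80.9 CPM in WT cells with vehicle, whereas *Sost* and *Mepe*, made by osteocytes, had 0 throughout. *Pth1r*, which encodes the PTH receptor, had 0 to 10 counts per library and was not called in any comparison. Values are given below as counts, as CPM (counts scaled to library size with edgeR's TMM factors), or as CPM per kb of exon where genes are compared with each other. A gene is called where edgeR's quasi-likelihood test gives a Benjamini-Hochberg adjusted p under 0.05 over the 17691 genes tested, those whose counts summed to 10 or more. Of the members 4 passed that filter, and *Il6* did so with exactly 10 counts.

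The 6 genes lay far apart in level. Averaged over 12 libraries, *Csf1* had 65.1 CPM per kb and exceeded 95.8% of the tested genes, *Tnfrsf11b* had 4.75 and exceeded 58.4%, and *Lif* had 0.258 and exceeded 28.2%. *Il11* at 0.0203 and *Il6* at 0.0188 CPM per kb were next and did not differ beyond their counting error. *Tnfsf11* was last, with none. Within each group the libraries of *Csf1*, *Tnfrsf11b* and *Lif* kept that order without overlap.

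**Figure D1:**
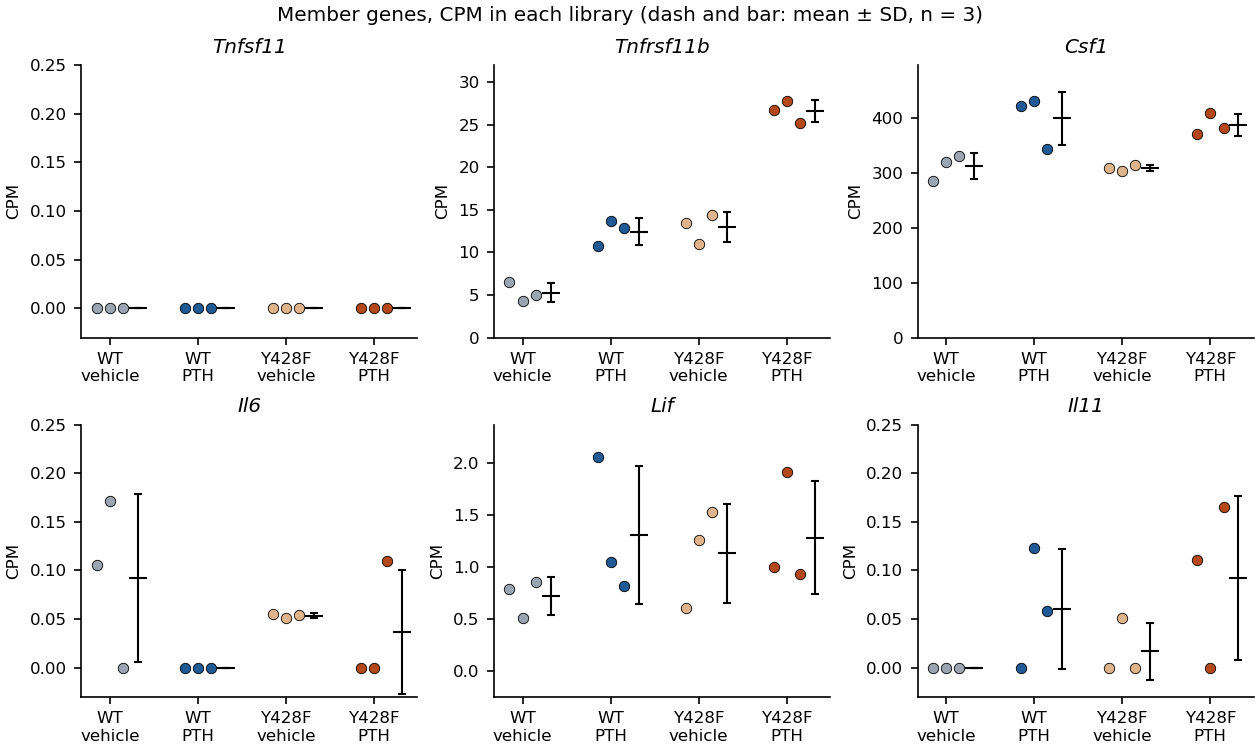
CPM of the 6 members in each library (points), with the mean ± SD of 3 libraries beside them, for WT and Y428F cells with vehicle or PTH. *Tnfrsf11b* stepped up from 5.27 to 26.6 CPM across the groups, *Csf1* was higher with PTH in both lines, *Tnfsf11* was at 0, and *Il6* and *Il11* were at 3 counts or fewer per library.

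The RANKL gene was not detected. *Tnfsf11* (ENSMUSG00000022015.9, GRCm39 chr14:78514885-78545490, minus strand) had 0 counts in all 12 libraries, of 215744939 counts in total. A count of 0 allows up to 3 counts, which is 0.152 to 0.185 CPM in a single library and 0.0139 CPM over all of them. This limit covers counting error only. A change of *Tnfsf11* that stayed below this limit, with PTH or between the lines, was not detectable at this depth. The gene for its receptor, *Tnfrsf11a* (RANK), also had 0 counts in all libraries.

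The OPG gene, in contrast, was higher with PTH and higher in Y428F cells. *Tnfrsf11b* (ENSMUSG00000063727.4, chr15:54114015-54142075, minus strand) had 123, 75 and 94 counts in WT cells with vehicle and 182, 223 and 221 with PTH. The Y428F libraries had 245, 218 and 264 counts with vehicle and 481, 496 and 458 with PTH. No PTH-treated library overlapped a vehicle-treated one of the same line, and no Y428F library overlapped a WT library with the same treatment.

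As mean ± SD (n = 3), WT cells had 5.27 ± 1.14 CPM with vehicle and 12.4 ± 1.54 with PTH, a log2 fold change of 1.23 (SE 0.14, edgeR adjusted p = 5.33e-06). Y428F cells had 13.0 ± 1.75 CPM with vehicle and 26.6 ± 1.31 with PTH, a log2 fold change of 1.04 (SE 0.12, edgeR adjusted p = 7.33e-06). Thus *Tnfrsf11b* rose 2.35-fold in WT cells and 2.05-fold in Y428F cells when PTH was given. Of all tested genes, 13.4% were called in WT cells (7.42% higher) and 12.4% in Y428F cells (6.61% higher), while libraries did not overlap, with PTH higher, for 13.2% and 15.5%.

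Between the lines the step in *Tnfrsf11b* was of like size. Y428F cells had 2.44-fold more than WT cells with vehicle (log2 1.29, SE 0.14, edgeR adjusted p = 2.06e-07) and 2.14-fold more with PTH (log2 1.10, SE 0.12, edgeR adjusted p = 2.60e-07). These comparisons called 45.1% of the genes with vehicle (22.4% higher in Y428F cells) and 45.7% with PTH (22.8% higher), and libraries did not overlap, with Y428F higher, for 27.5% and 25.6%. WT cells with PTH and Y428F cells with vehicle overlapped in *Tnfrsf11b*, at 10.7 to 13.7 and 11.0 to 14.4 CPM. From WT cells with vehicle to Y428F cells with PTH the mean CPM rose 5.04-fold.

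The response of *Tnfrsf11b* to PTH was not shown to differ between the lines. The log2 response in Y428F cells was lower by 0.19 than in WT cells as estimated, but the 95% confidence interval of the difference, Y428F minus WT, ran from -0.59 to 0.20 (edgeR adjusted p = 0.902). None of the 4 tested members was called for this difference by edgeR or by DESeq2, and 0 of them had an unadjusted p under 0.05. Of all tested genes, 0.413% were called.

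Because RANKL was at 0, the ratio of RANKL to OPG could only be bounded from above. Setting *Tnfsf11* at 3 counts and dividing per kb of exon, the ratio was at most 3.28% to 5.37% in the WT libraries with vehicle and 1.81% to 2.21% in those with PTH. In Y428F libraries it was at most 1.53% to 1.85% with vehicle and 0.812% to 0.88% with PTH. The bound is lowest where *Tnfrsf11b* is highest by construction, and the ratio itself was neither measured nor tested.

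*Csf1* (ENSMUSG00000014599.11, chr3:107648364-107667806, minus strand) was abundant and rose modestly with PTH in both lines. It had 5381, 5609 and 6173 counts in WT cells with vehicle and 7161, 7008 and 5905 with PTH. The Y428F libraries held 5647, 5991 and 5743 counts with vehicle and 6676, 7283 and 6918 with PTH. After scaling, all PTH-treated libraries lay above the vehicle-treated libraries of their line, although the third PTH-treated WT library, at 344 CPM, was close to the highest vehicle-treated one, at 331 CPM.

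In WT cells *Csf1* went from 312 ± 24.2 to 399 ± 48 CPM (1.28-fold, log2 0.36, SE 0.08, edgeR adjusted p = 0.00272). In Y428F cells it went from 309 ± 5.4 to 387 ± 19.9 CPM (1.25-fold, log2 0.33, SE 0.08, edgeR adjusted p = 0.00617). The lines were not distinguished by *Csf1*: the log2 difference was -0.01 with vehicle (95% confidence interval -0.17 to 0.14, edgeR adjusted p = 0.901) and -0.05 with PTH (-0.20 to 0.11, adjusted p = 0.663). The response differed between lines by -0.03 (-0.25 to 0.19, edgeR adjusted p = 0.989). The annotation puts a long noncoding RNA gene, *Gm40121*, on the opposite strand with 159 exonic bases shared with *Csf1*. *Gm40121* is not among the genes of the count matrix, and the exons of *Csf1* cover 5397 bases. Whether the counting used strand is not stated, so any reads of *Gm40121* from the shared bases may have been counted to *Csf1*.

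**Figure D2:**
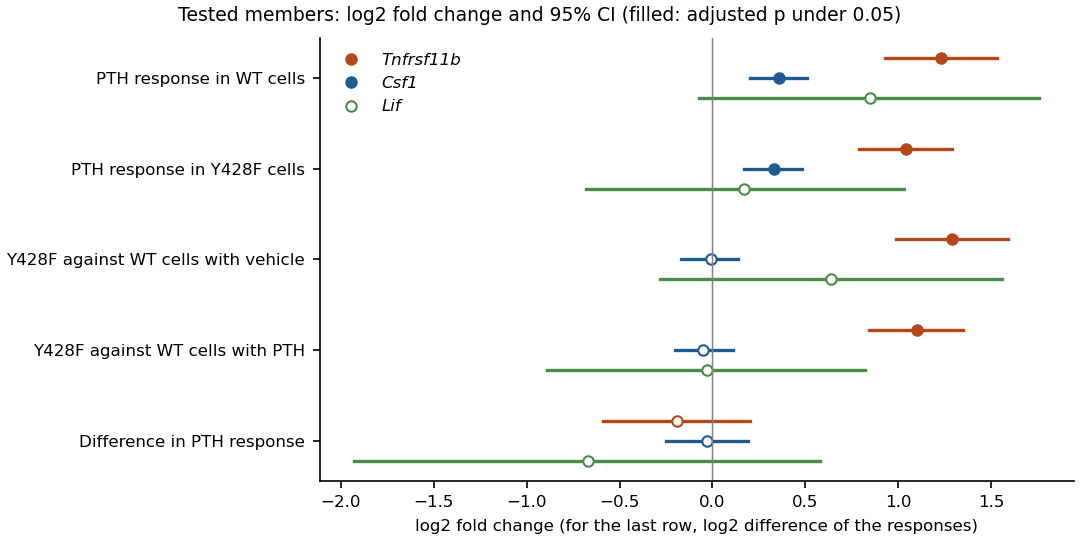
Log2 fold change (points) with 95% confidence interval (lines) of *Tnfrsf11b*, *Csf1* and *Lif* in the 5 comparisons, filled where the adjusted p was under 0.05. *Tnfrsf11b* lies at 1.04 to 1.29 in the 4 pairwise comparisons, *Csf1* departs from 0 with PTH alone, and the intervals of *Lif* include 0 throughout.

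*Csf1* and *Tnfrsf11b* thus moved by different amounts relative to each other. Per kb, the level of *Csf1* was 34.3 ± 8.91 times that of *Tnfrsf11b* in WT cells with vehicle and 18.1 ± 3.56 times with PTH. In Y428F cells it was 13.5 ± 1.68 times with vehicle and 8.13 ± 0.348 times with PTH (SD, n = 3, no test).

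The 3 cytokines of the gp130 family were low or nearly absent, and none was called in any comparison. *Lif* (ENSMUSG00000034394.15, chr11:4207557-4222514, plus strand), which maintains stem cells and acts on osteoblasts, had 15, 9 and 16 counts in WT cells with vehicle and 35, 17 and 14 with PTH. Among Y428F libraries it had 11, 25 and 28 counts with vehicle and 18, 34 and 17 with PTH. The groups overlapped in every comparison. The WT means were 0.721 ± 0.184 and 1.31 ± 0.664 CPM, a log2 difference of 0.85 (95% confidence interval -0.07 to 1.76, edgeR adjusted p = 0.238) that was 0.36 without the first PTH-treated WT library. The Y428F means were 1.13 ± 0.477 and 1.28 ± 0.544 CPM, a log2 difference of 0.17 (-0.68 to 1.03, edgeR adjusted p = 0.865). Intervals of this width allow a change of 2-fold or more in *Lif* to have gone unseen in each line.

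*Il6* (ENSMUSG00000025746.12, chr5:30218112-30224979, plus strand), a cytokine that promotes bone resorption in inflammation, had 10 counts in all. These were 2, 3 and 0 in WT cells with vehicle, 0 in each with PTH, 1 in each of the Y428F libraries with vehicle, and 0, 0 and 2 with PTH. *Il11* (ENSMUSG00000004371.16, chr7:4775372-4785858, minus strand), which raises osteoclast formation through stromal cells, had 9 counts. These were 0 in each of the WT libraries with vehicle, 0, 2 and 1 with PTH, 0, 1 and 0 in Y428F cells with vehicle, and 2, 0 and 3 with PTH. Since no library exceeded 3 counts, no change of either gene is read from the fitted values.

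Sequences before the start sites were read to show what the members that rose and the barely detected *Il6* have in front of them. The 250 bases upstream of the canonical transcript start in GENCODE vM39 (GRCm39) are written on the strand of the gene, 5′ to 3′, with matches in capitals. The windows are chr15:54142076-54142325 (minus strand) for *Tnfrsf11b*, chr3:107667807-107668056 (minus) for *Csf1* and chr5:30217862-30218111 (plus) for *Il6*.
Tnfrsf11b: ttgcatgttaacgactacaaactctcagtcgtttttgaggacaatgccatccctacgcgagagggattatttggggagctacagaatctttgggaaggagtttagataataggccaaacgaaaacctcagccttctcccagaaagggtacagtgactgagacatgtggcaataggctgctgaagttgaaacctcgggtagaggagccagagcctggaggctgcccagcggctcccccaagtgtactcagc
Csf1: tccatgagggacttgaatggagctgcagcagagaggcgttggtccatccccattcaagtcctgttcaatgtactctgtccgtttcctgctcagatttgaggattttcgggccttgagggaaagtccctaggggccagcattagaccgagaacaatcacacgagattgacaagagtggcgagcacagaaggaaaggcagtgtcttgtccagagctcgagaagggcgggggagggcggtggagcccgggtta
Il6: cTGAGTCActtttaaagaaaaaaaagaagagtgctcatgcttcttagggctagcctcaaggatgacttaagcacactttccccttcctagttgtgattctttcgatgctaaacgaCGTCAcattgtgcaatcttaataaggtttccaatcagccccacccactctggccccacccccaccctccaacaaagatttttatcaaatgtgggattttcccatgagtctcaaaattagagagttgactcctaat

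A set of 6 motifs was searched on both strands: the cAMP response element (CRE) TGACGTCA, its half-site TGACG, AP-1 TGANTCA, RUNX TGTGGT, TEAD GGAATG and STAT TTCNNNGAA. The half-site is contained in the full CRE. Neither the *Tnfrsf11b* nor the *Csf1* window held any of them, and neither did that of *Tnfsf11*. The *Il6* window held an AP-1 match and a CRE half-site on the minus strand. *Lif* held an AP-1 and a RUNX match and *Il11* an AP-1 match. Among 21770 promoters of protein-coding genes of this length, 1.69% held the CRE, 18.0% the half-site, 6.17% AP-1, 13.0% RUNX, 12.1% TEAD and 7.7% STAT. A match is a run of letters and not a bound site, and no match says only that the letters are not in this window.

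Among the receptors of the members, *Lgr4*, which encodes a further receptor for RANKL and is best known as an R-spondin receptor, was expressed. It had 23.9 ± 0.468 CPM in WT cells with vehicle and 30.9 ± 1.16 with PTH, a log2 rise of 0.37 (edgeR adjusted p = 0.00125). In Y428F cells it had 30.5 ± 1.21 CPM with vehicle and 32.7 ± 0.986 with PTH (log2 0.10, edgeR adjusted p = 0.407), and the difference in response was not called (-0.27, adjusted p = 0.521). *Csf1r*, the receptor of CSF1 on monocytes and osteoclasts, had between 1 and 11 counts per library.

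Of the 6 receptor genes of the gp130 family, 5 were measured at levels above those of the member ligands *Lif*, *Il6* and *Il11*, and *Cntfr* had 1 count in all. *Il6st*, which encodes gp130, had 29.1 CPM per kb in WT cells with vehicle, *Il11ra1* 13.0, *Osmr* 7.39, *Il6ra* 3.6 and *Lifr* 1.48, against 0.167 for *Lif*. These 5 were tested, and with PTH none was called in either line by edgeR. Of all genes, 13.4% were called in WT and 12.4% in Y428F cells. The median log2 fold change of the 5 was 0.14 in WT and 0.15 in Y428F cells, against -0.02 and -0.01 for all genes. Between the lines 3 of the 5 were lower in Y428F cells with vehicle: *Il11ra1* by -1.22, *Il6ra* by -0.95 and *Il6st* by -0.79 on the log2 scale (edgeR adjusted p at most 3.32e-07). The median of the 5 was -0.79 against 0.01 for all genes, and 22.7% of tested genes were called lower. With PTH the same 3 genes were lower (-1.23, -0.97 and -0.78), where 23.0% were.

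Of 6 other genes of the gp130 ligand family, 4 were tested and 3 averaged at least 1 CPM. *Clcf1*, a B cell stimulating member of the family, was the highest, at 12.8 CPM per kb in WT cells with vehicle. It rose with PTH in Y428F cells (log2 0.34, edgeR adjusted p = 0.00657), and the value in WT cells was 0.18 (adjusted p = 0.148). Its difference in response, 0.16, was not called (edgeR adjusted p = 0.853). *Ctf1* (cardiotrophin) was lower in Y428F cells by -0.75 with vehicle (edgeR adjusted p = 0.0314), a call that was lost without the second or the third vehicle-treated library of either line (adjusted p 0.0764 to 0.113). *Osm* had 0 counts in all libraries.

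**Figure D3:**
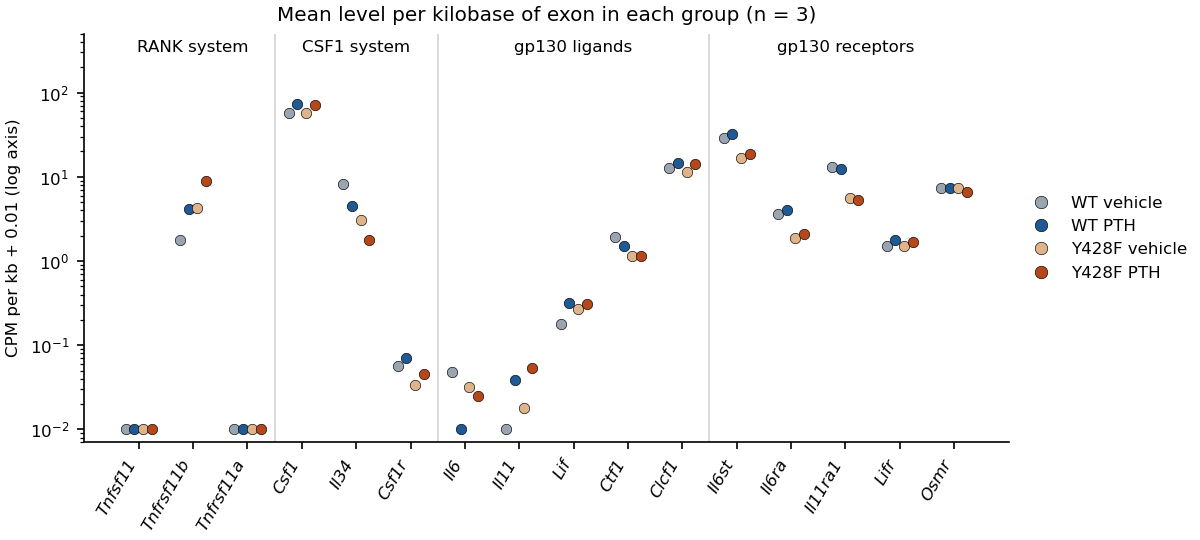
Mean level (CPM per kb of exon plus 0.01, log axis, n = 3) of ligand and receptor genes in the 4 groups. *Tnfsf11* and *Tnfrsf11a* sit at the bottom, *Csf1* lies between 57.2 and 73.9, and *Il6*, *Il11* and *Lif* lie below the 5 gp130 receptor genes plotted.

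Other genes through which stromal cells act on osteoclasts or their precursors were compared as a list of 22, of which 14 were tested. With PTH in WT cells 3 were higher and 1 lower, in Y428F cells 3 were higher and 2 lower. Of all genes, 7.42% were higher and 6.01% lower in WT cells, and 6.61% and 5.78% in Y428F cells. Over the 12 that averaged at least 1 CPM, the median log2 fold change was 0.02 and 0.08. *Ptgs2*, the cyclooxygenase that makes prostaglandins, rose by 0.98 in WT and by 1.30 in Y428F cells (edgeR adjusted p = 2.92e-05 and 1.55e-06). *Ccl2*, a monocyte chemokine, rose by 0.54 and 0.89 (adjusted p = 4.97e-04 and 2.63e-07). *Ccl7*, another, rose by 0.90 in Y428F cells (edgeR adjusted p = 1.19e-05), and the value in WT cells was 0.32 (adjusted p = 0.0771). Its difference in response, 0.58, was not called (edgeR adjusted p = 0.183). The third higher gene in WT cells was *Csf3*, on a single library of 43 counts, with at most 2 in any other.

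*Il34*, the second ligand of the CSF1 receptor, moved opposite to *Csf1*. It fell with PTH from 15.6 ± 1.66 to 8.44 ± 0.567 CPM in WT cells (log2 -0.88, edgeR adjusted p = 1.72e-05). Y428F cells went from 5.84 ± 0.559 to 3.39 ± 0.189 CPM (log2 -0.78, edgeR adjusted p = 7.00e-04). With vehicle, Y428F cells also had less of it than WT cells, by -1.42 (edgeR adjusted p = 3.22e-09). Per kb, the level of *Csf1* was 7.07 ± 0.8 times that of *Il34* in WT cells with vehicle and 16.8 ± 2.95 times with PTH. The corresponding ratios in Y428F cells were 18.7 ± 2.06 and 40.3 ± 4.03 times (SD, n = 3, no test). *Efnb2*, the ligand of a receptor pair between osteoclasts and osteoblasts, fell by 0.37 in Y428F cells with PTH (adjusted p = 0.00196 by edgeR). The value in WT cells was 0.05 (adjusted p = 0.736), and the difference in response, -0.42, was not called (adjusted p = 0.0997).

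**Figure D4:**
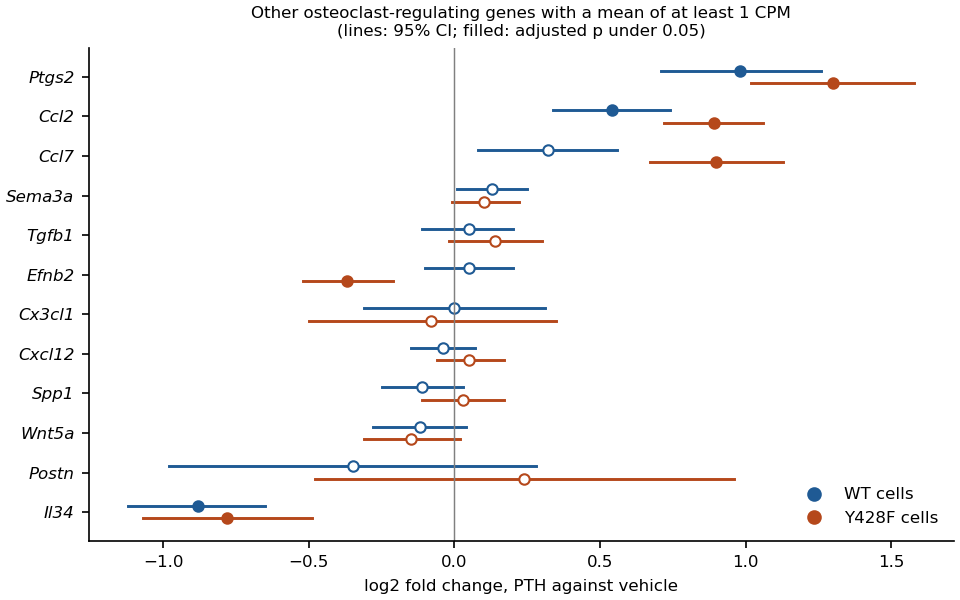
Log2 fold change with PTH (points, with 95% confidence interval) of the 12 other osteoclast-regulating genes that averaged at least 1 CPM, in WT and Y428F cells, filled where the adjusted p was under 0.05. *Ptgs2* and *Ccl2* were higher and *Il34* lower in both lines.

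Between the lines this list was mostly lower in Y428F cells. With vehicle 10 of 14 were lower and 1, *Ccl2*, was higher (log2 1.28, edgeR adjusted p = 2.74e-10), and with PTH 9 were lower and 2 higher. Of all genes, 22.7% were lower and 22.4% higher with vehicle, and 23.0% and 22.8% with PTH. Over the 12 with at least 1 CPM the median was -0.69 with vehicle and -0.64 with PTH, against 0.01 and 0.02 for all genes. *Cx3cl1*, a membrane-bound chemokine, was lower by -2.01 and *Efnb2* by -1.15 with vehicle. *Tnfrsf11b* went the other way from most of this list.

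Most regulators through which PTH and other hormones act on the RANKL gene were present although the gene was not detected. All 16 of the list were tested and 15 averaged at least 1 CPM, while *Mef2c* had 0 counts in the WT libraries and 1 to 7 in the Y428F libraries. With PTH 1 was called higher and 2 lower in each line, next to 7.42% and 6.01% of all genes in WT and 6.61% and 5.78% in Y428F cells. With PTH in WT cells *Nr3c1*, the glucocorticoid receptor, rose by 0.28, and *Vdr*, the vitamin D receptor, and the deacetylase gene *Hdac4* fell by 0.50 and 0.35 (edgeR adjusted p = 0.00222, 0.00634 and 0.0231). In Y428F cells *Nr3c1* rose by 0.29, and *Vdr* and the kinase gene *Sik1* fell by 0.38 and 0.35 (edgeR adjusted p = 0.00225, 0.0301 and 0.0131). *Hdac4* was at -0.18 in Y428F cells and *Sik1* at -0.22 in WT cells (edgeR adjusted p = 0.272 and 0.107). For the difference in response none of the 16 was called, next to 0.413% of all genes. The call of *Vdr* was lost in WT cells without the third vehicle-treated library (adjusted p = 0.0542), and in Y428F cells without any of the vehicle-treated libraries or without the first or the second PTH-treated one (adjusted p up to 0.108). That of *Hdac4* was lost without the third vehicle-treated or the first or the third PTH-treated WT library (up to 0.123). That of *Sik1* was lost without the third vehicle-treated or the first PTH-treated Y428F library (up to 0.0723). The median log2 change of the list was 0.02 in WT and -0.08 in Y428F cells. Between the lines with vehicle, 8 of the 16 were lower in Y428F cells and 1, *Mef2c*, was higher, against 22.7% and 22.4% of all genes. Among the lower were *Hdac5* by -0.82, *Crtc1* by -0.58 and *Stat3* by -0.47 (edgeR adjusted p at most 1.02e-05). With PTH 8 were lower and 2 higher, against 23.0% and 22.8% of all genes. *Yap1* rose with PTH by 0.35 (WT) and 0.22 (Y428F), and was lower in Y428F cells by -0.37 with vehicle (edgeR adjusted p = 1.05e-04, 0.00739 and 7.70e-06). Its difference in response, -0.12, was not called (edgeR adjusted p = 0.811). Whether reads of the introduced YAP are among the *Yap1* counts was not tested.

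Some marker genes of stromal and other cell types moved in the same samples as *Tnfrsf11b*. Between the lines, 22.4% of all genes were higher and 22.7% lower in Y428F cells with vehicle, and 22.8% and 23.0% with PTH. The summed level of 10 haematopoietic markers, 7 with at least 10 counts and *Cd14* the most abundant, was 8.68 ± 0.734 and 7.51 ± 0.74 CPM in WT cells with vehicle and PTH. In Y428F cells it was 17.8 ± 0.581 and 20.8 ± 1.33 CPM, with *Cd3e* at 0 in all libraries. Of the 7 tested, *Cd14*, *Ptprc* and *Lyz2* were called between the lines, all higher in Y428F cells with either treatment, and *Csf1r*, *Itgam*, *Cd68* and *Fcgr1* were not called. *Cd14* alone went from 6.09 ± 0.407 CPM in WT to 11.0 ± 0.26 in Y428F cells with vehicle. The 5 endothelial markers, *Cdh5* the most abundant, summed to 1.42 ± 0.453 and 1.05 ± 0.111 CPM in WT cells and to 8.91 ± 1.00 and 6.46 ± 0.329 in Y428F cells. *Cdh5* alone made up 7.95 ± 0.865 CPM of the Y428F sum with vehicle and was the 1 endothelial marker called, while *Pecam1*, *Kdr* and *Tek* were not called and *Emcn* was not tested. The 12 stromal markers summed, with vehicle, to 22880 ± 1936 CPM for WT and 14592 ± 590 for Y428F cells, and with PTH to 22484 ± 1594 and 12234 ± 1435. Of the 11 tested, 10 were lower and 1, *Lepr*, was higher in Y428F cells with vehicle, and 9 were lower and 1 higher with PTH. The median log2 difference was -0.73 and -0.86, against 0.01 and 0.02 for all genes. *Col3a1*, a fibrillar collagen gene, was lower by -2.04 with vehicle, *Vcam1*, an adhesion molecule gene, by -1.76 and *Pdgfra*, a receptor gene of stromal progenitors, by -1.59 (edgeR adjusted p at most 2.22e-11). In the response to PTH, 4 of the 11 fell in WT cells, where 6.01% of all genes did, and 2 in Y428F cells, where 5.78% did. *Pdgfra* fell by 0.60 in WT and 0.73 in Y428F cells (edgeR adjusted p = 1.12e-04 and 7.17e-05), *Kitl*, *Pdgfrb* and *Vcam1* by 0.24, 0.27 and 0.18 in WT cells (adjusted p = 0.00952, 0.0496 and 0.0388), and *Col1a1* by 0.33 in Y428F cells (adjusted p = 0.0218). For the difference in response none of the 11 was called, next to 0.413% of all genes. The call of *Pdgfrb* was lost in 12 of 19 alternatives (adjusted p up to 0.243, without the third vehicle-treated WT library), that of *Vcam1* in 10 (up to 0.228, without the second), that of *Kitl* without the second vehicle-treated WT library (0.0909) and that of *Col1a1* without the first vehicle-treated or the first PTH-treated Y428F library (0.115 and 0.124). The 11 osteoclast markers, *Nfatc1* the most abundant and *Tnfrsf11a* and *Dcstamp* at 0, summed with vehicle to 60 ± 10.3 CPM in WT and 38.2 ± 2.63 in Y428F cells. Nearly all of these sums was *Nfatc1*, at 48.2 ± 6.22 and 35.4 ± 2.34 CPM, and *Mmp9*, at 11.0 ± 4.04 and 2.45 ± 0.447 CPM. Of the 6 tested, these were the 2 called between the lines with vehicle, both lower in Y428F cells. *Acp5*, *Ctsk*, *Oscar* and *Itgb3* were not called. In bulk RNA, fewer cells of a type and less RNA per cell cannot be told apart, and the part of these differences in those of *Tnfrsf11b*, between the lines or with PTH, was not tested.

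The neighbourhood of *Tnfrsf11b* on chromosome 15 also differed between the lines. Of the 7 other genes with at least 1 CPM whose start lay within 1 Mb, a window chosen after values were seen, 5 were higher and 1 lower in Y428F cells with vehicle. *Ccn3*, a matricellular protein gene, was higher by 1.35, *Dscc1* by 1.34, *Deptor* by 1.21, *Colec10* by 0.92 and *Taf2* by 0.41, *Enpp2* was lower by -1.35, and *Ext1* was at 0.00. With PTH 4 were higher and 1 lower. Of all genes, 22.4% were higher and 22.7% lower with vehicle, and 22.8% and 23.0% with PTH. For PTH against vehicle, 1 of the 7, *Ext1*, was called higher in each line (log2 0.28 in WT and 0.33 in Y428F cells). Of all genes, 7.42% were higher in WT and 6.61% in Y428F cells. The medians of the 7 were 0.07 and -0.04, and *Tnfrsf11b* was at 1.23 and 1.04. Over the 434 genes of chromosome 15 with at least 4 CPM, the median difference between the lines was 0.20 with vehicle and 0.23 with PTH, and 72.1% and 70.0% had a value above 0. The chromosomes of the tested members not called between the lines varied. With vehicle the median was 0.18 on chromosome 11 (*Lif*), -0.17 on chromosome 3 (*Csf1*) and -0.02 on chromosome 5 (*Il6*). The part of the chromosome 15 shift in the difference of *Tnfrsf11b* between the lines was not tested.

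**Figure D5:**
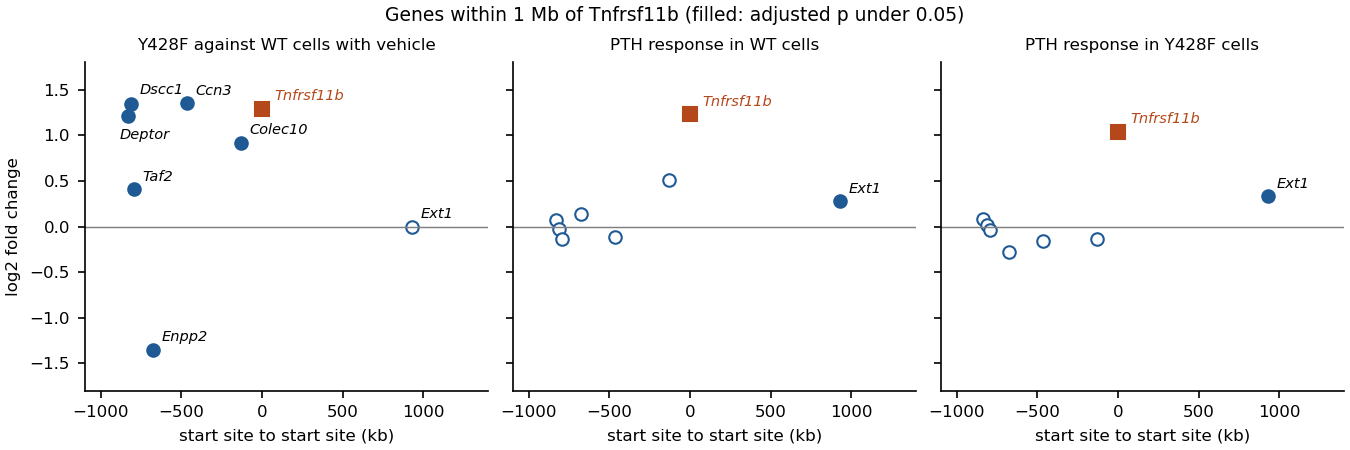
Log2 fold change of *Tnfrsf11b* (square) and the 7 expressed genes within 1 Mb (circles, filled where the adjusted p was under 0.05) against the distance between start sites in kb, negative upstream of *Tnfrsf11b*. Of the neighbours 5 were higher in Y428F cells with vehicle, and *Ext1* alone was called for PTH against vehicle in each line.

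The genes whose pattern over the 12 libraries was most like that of a member were found by Pearson's correlation of log2 CPM among 12038 genes. The points share their libraries and depth, so the values are descriptions. For *Tnfrsf11b* these were *Fhl1* (r = 0.991), *Dcaf13* (0.980) and *Gm7964* (0.980), the last of which was not among the 3 with a prior count of 0.5. *Fhl1* had 18.1 and 66.3 CPM in WT cells with vehicle and PTH and 65.6 and 190 in Y428F cells, lowest and highest in the same groups as *Tnfrsf11b*, with larger steps. For *Csf1* they were *Aebp2* (0.961), *Urb1* (0.959) and *Slc25a24* (0.959), and for *Lif* *Plekha1* (0.861), *Ccnj* (0.820) and *Ppig* (0.800).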

How the data were processed

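The authors mapped reads of poly(A)-selected libraries with STAR 2.7.10b to GRCm39 with GENCODE basic annotation and deposited RSEM expected counts per gene, with no scaling for depth or length. Whether the counting used strand is not given in the sources used here. After rounding to whole counts, 4 groups over 12 libraries were fitted with edgeR 4.0.16 (R 4.3.3; glmQLFit, glmQLFTest, TMM) for genes whose counts summed to 10 or more, with 5 contrasts and Benjamini-Hochberg adjustment. SE and 95% confidence intervals came from the F statistic. Symbols, positions, exon unions and start sites came from GENCODE vM39, to which 56236 identifiers matched and 744 did not.

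The members and gene lists were chosen with earlier results of these data known. Named were the members, all receptors of members, *Pth1r*, *Yap1*, *Sik1*, and per list and comparison up to 4 called genes of at least 1 CPM with the largest changes; single genes of small counts and the neighbours of *Tnfrsf11b* were named after their values were seen. Some genes of the lists are not reported here. Likeness used log2 CPM with a prior count of 2. Alternatives were other scalings, DESeq2 1.42.0, other filters, the replicate number as a block, each line alone and each library left out. In a fit tested on simulated data for PTH in WT cells, over 17691 genes of which 200 were changed, 98% of 2-fold and 91% of 1.5-fold changes were recovered. The changed genes were drawn only from genes with more counts per library than *Lif*, *Il6* or *Il11*. The spread was simulated from the fitted trend. These recovery rates therefore do not cover genes with counts as low as those members. There were 10 false calls among unchanged genes, and 0 calls where no change was simulated.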

Additional observations from a re-analysis of the deposited data

How the results depend on the processing

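Depth limits *Tnfsf11*, *Il6* and *Il11*, which are at 3 counts or fewer in each library, and *Lif*, whose counts run from 9 to 35. The members called, 2 with PTH in each line, 1 between the lines with each treatment and 0 for the difference in response, were the same in number under every alternative run. *Tnfrsf11b* ranged over log2 1.11 to 1.42 with PTH in WT cells, 0.93 to 1.12 in Y428F cells, 1.16 to 1.47 between the lines with vehicle and 1.01 to 1.18 with PTH. *Csf1* ranged over 0.30 to 0.45 and 0.28 to 0.36 with PTH, with an adjusted p of at most 0.0242 and 0.0297. With library totals in place of TMM, the *Csf1* difference between the lines became 0.04 with vehicle and 0.02 with PTH and that of *Lif* with PTH 0.04, none of them called, and the share of called genes that were higher with PTH was 37.3% against 55.2% in WT cells and 38.1% against 53.4% in Y428F cells. Leaving out single libraries gave uncalled values on both sides of 0 for *Lif* with PTH in Y428F cells (-0.23 to 0.45), *Il6* there (-0.45 to 0.05, fitted on 0 to 2 counts per library and not read as a change), *Csf1* between the lines with vehicle (-0.08 to 0.03) and with PTH (-0.14 to 0.02), *Lif* between the lines with PTH (-0.45 to 0.47) and the *Csf1* difference in response (-0.13 to 0.03). The number of genes called for PTH in Y428F cells was 2192 and ran without single libraries from 1435, without the first vehicle-treated Y428F library, to 2515, and was 2672 in the Y428F libraries alone. For the difference in response it was 73, and it was 123 with DESeq2, 216 with no filter and 24 to 89 without single libraries, the lowest without the third PTH-treated Y428F library. The cause of these shifts was not tested. Same-numbered libraries did not deviate together (18 pairs, r from -0.031 to 0.037), and with the replicate number as a block 2430, 2273, 7976, 8027 and 76 genes were called in the 5 comparisons and 2, 2, 1, 1 and 0 members. DESeq2 gave an adjusted p of NA for *Lif* and *Il6* with PTH in WT cells. The planned test of the ratio of *Tnfsf11* to *Tnfrsf11b*, with 1 count added or other lengths, was not run because *Tnfsf11* had no counts, and a minimum of 10 counts in every library left no value for *Il6* and *Lif*. With the longest transcript as length the level of *Csf1* in WT cells with vehicle was 74.2 CPM per kb and the order of the members was the same.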

Other observations

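A few further genes of the lists are given as values, named after they were seen. *Tnfsf10*, which encodes the death ligand TRAIL that also binds OPG, had 7, 11 and 18 counts in WT cells with vehicle and 0 in each of the Y428F libraries with vehicle (edgeR adjusted p = 3.12e-04). With PTH it had 10, 4 and 5 counts in WT cells and 1, 0 and 4 in Y428F cells (edgeR adjusted p = 0.0762). *Csf3*, the granulocyte colony-stimulating factor gene, had 43 counts in the first PTH-treated WT library and at most 2 in each of the other 11, and the same library held the highest WT count of *Lif*, 35. *Phex*, an osteoblast and osteocyte gene of phosphate handling, had 0.796 ± 0.15 and 1.77 ± 0.235 CPM in WT cells with vehicle and PTH, and 2.16 ± 0.702 and 3.33 ± 0.734 CPM in Y428F cells (SD, n = 3). It was higher in the Y428F line by 1.44 with vehicle and 0.91 with PTH on the log2 scale (edgeR adjusted p = 4.87e-04 and 0.00694), the latter call being lost without the first PTH-treated Y428F library (adjusted p = 0.0545). With PTH it rose by 1.14 in WT cells (edgeR adjusted p = 0.0179), a call lost without the second vehicle-treated or the second PTH-treated WT library (adjusted p = 0.0643 and 0.0718). The value in Y428F cells was 0.62 (adjusted p = 0.128), and the difference in response, -0.53, was not called by edgeR (adjusted p = 0.871).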
